A study of Homo sapiens with 4 samples.

Results

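The interferon-induced transmembrane proteins IFITM1, IFITM2 and IFITM3 and the membrane protein tetherin (gene BST2) were followed in HT-29 cells that overexpressed TRIM40. The members were taken by gene symbol from the deposited transcript tables, and their transcripts were summed per gene, which gave 4 of 27685 genes. HT-29 is a human colorectal adenocarcinoma line used as a model of colonic epithelium. The control cells carried a control vector and have the genotype label WT, and the other cells stably expressed TRIM40 with an N-terminal Myc tag, with no other treatment in either group. RNA-seq was run in 2 independent experiments, each with 1 control and 1 Myc-TRIM40 library. The comparison addresses how TRIM40 overexpression affects the RNA of these cells. Stable lines in this study were made by viral transduction and puromycin selection, and whether the 2 experiments used the same transduced cells is not given in the sources used here.

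IFITM proteins are small membrane proteins that hinder the fusion of enveloped viruses with cell membranes. IFITM1 is found largely at the cell surface, and IFITM2 and IFITM3 in endosomes and lysosomes. Tetherin holds newly formed enveloped virions at the surface of the cell that made them. The genes are classical interferon-stimulated genes, and their promoters are known to respond to interferon-activated factors, STAT2 and IRF9 among them, through the interferon-stimulated response element (ISRE).

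The libraries held between 60954602 and 67424698 reads. TRIM40 had 0 reads in each control library, 272646 with Myc-TRIM40 in experiment 1 and 110665 with it in experiment 2. All 10 markers of colon epithelium had reads in every library, with a summed level between 6694 and 9486 FPKM, where FPKM is the number of reads scaled to the length of the transcript and the total of the library. The 5 leukocyte markers summed to between 1.45 and 2.61 FPKM, nearly all of it from CD14, with CD3E and LILRA4 at 0 reads in every library. The 5 markers of stroma and endothelium summed to between 0.365 and 1.08 FPKM, with COL1A2 and DCN at 0. In RNA from whole cultures, more RNA per cell and more cells that express a gene cannot be told apart.

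Sequences upstream of the members are shown first because their motifs are what the genes are known to share. The RefSeq promoter table (GRCh38.p14) matched 3 of the 4 members, IFITM1, IFITM3 and BST2, and not IFITM2. Each window was searched from 250 bases before the annotated start to 50 bases after it, on both strands, for an ISRE core, here 2 copies of GAAA with any 2 bases between them, and for the gamma-activated site TTCNNNGAA. The bases from 250 before the start to 10 after it are printed 5′ to 3′ on the strand of the gene, with ISRE cores in capitals. They lie at chr11:313790-314049 (plus strand), chr11:320851-321110 (minus strand) and chr19:17405621-17405880 (minus strand).
IFITM1: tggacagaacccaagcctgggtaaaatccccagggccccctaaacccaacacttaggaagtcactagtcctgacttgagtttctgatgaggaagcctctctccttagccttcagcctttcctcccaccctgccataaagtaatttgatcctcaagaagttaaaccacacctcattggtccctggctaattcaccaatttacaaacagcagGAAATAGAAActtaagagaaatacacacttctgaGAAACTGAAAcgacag
IFITM3: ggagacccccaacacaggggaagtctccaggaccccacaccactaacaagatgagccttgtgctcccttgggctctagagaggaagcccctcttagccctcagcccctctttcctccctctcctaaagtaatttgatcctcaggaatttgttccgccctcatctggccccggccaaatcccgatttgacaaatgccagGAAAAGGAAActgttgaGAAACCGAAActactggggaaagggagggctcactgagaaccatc
BST2: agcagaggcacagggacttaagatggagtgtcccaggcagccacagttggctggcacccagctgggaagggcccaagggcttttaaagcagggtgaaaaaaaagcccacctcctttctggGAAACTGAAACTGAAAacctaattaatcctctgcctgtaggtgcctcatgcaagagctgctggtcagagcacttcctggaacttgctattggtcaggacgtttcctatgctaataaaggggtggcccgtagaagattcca

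Each of the 3 promoters held 2 ISRE cores, all on the strand of the gene. In IFITM1 they began at -40 and -6 relative to the annotated start, and in IFITM3 at -52 and -35. In BST2 they began at -130 and -124 and overlap each other, which makes a single run of 16 bases. Of 35116 promoter windows of the same length, 3.57% held an ISRE core. A gamma-activated site was matched once in IFITM1 and 2 times in BST2, and in 7.66% of all windows. The match in IFITM1 and 1 of those in BST2 overlap an ISRE core. A match is a description of the letters and not evidence of binding.

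The 3 IFITM genes also share coding sequence, which bears on how reads can be divided among them. In the GENCODE 29 transcripts linked to the same RefSeq accessions, the coding sequences of IFITM2 and IFITM3 were identical at 93.9% of 396 aligned bases. IFITM1 matched IFITM3 at 88.7% and IFITM2 at 86.3% of 336 aligned bases. The longest stretch that IFITM1 and IFITM3 have in common ran for 141 bases and is printed to show how much of a read it could fill.
IFITM1 and IFITM3: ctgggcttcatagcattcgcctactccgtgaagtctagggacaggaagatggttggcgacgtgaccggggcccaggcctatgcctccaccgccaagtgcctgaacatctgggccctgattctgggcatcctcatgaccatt

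Windows of 100 bases found also in another of these transcripts made up 5.56% of IFITM1, 5.92% of IFITM3 and 0% of IFITM2 and BST2. With windows of 50 bases the shares were 12.2% for IFITM1, 13.0% for IFITM3, 8.36% for IFITM2 and 0% for BST2. The read length is not given in the sources used here, and the division of such reads among the IFITM genes is uncertain. Their summed reads are therefore given too.

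In experiment 1 all 4 genes were higher in the Myc-TRIM40 library than in the control library on FPKM, as were 56.8% of all genes tested. In experiment 2 IFITM1 and IFITM3 were, against 61.7% of all genes tested, while IFITM2 and BST2 lay slightly lower on FPKM and higher on TPM. The ratio was far from equal among the members, from 83.3-fold for IFITM1 to 2.26-fold for IFITM2 in experiment 1. None of the 4 passed an adjusted p of 0.05 over both experiments. Fold values below are ratios of reads normalized by library size and TMM factors, and log2 ratios are of FPKM + 1, a scale that understates the change of low genes.

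**Figure D1:**
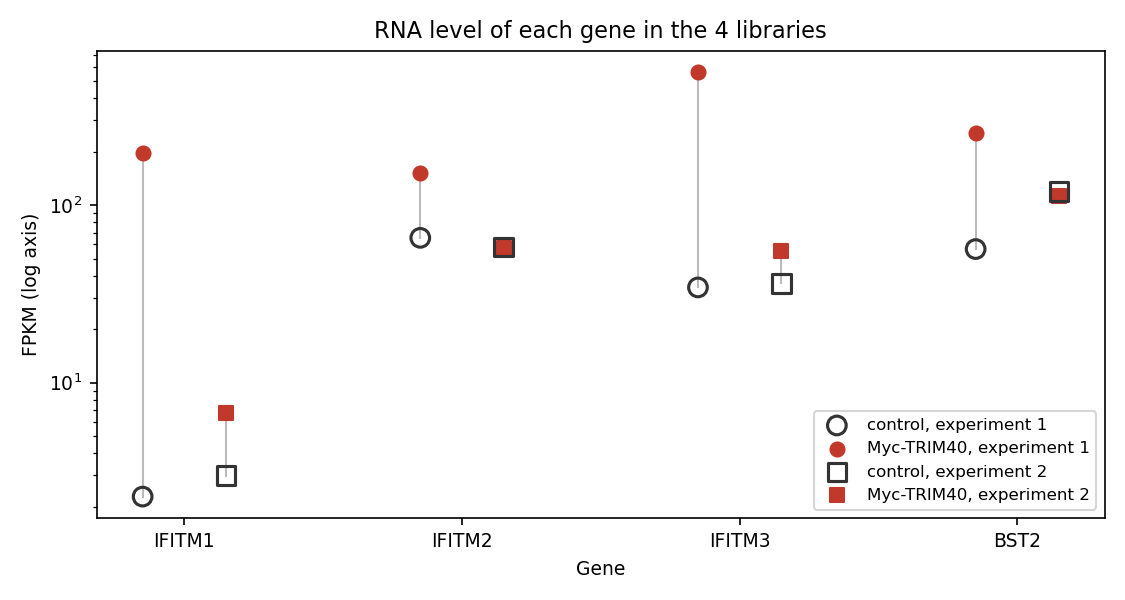
RNA level in FPKM (log axis) of IFITM1, IFITM2, IFITM3 and BST2 in each of the 4 libraries, with open symbols for control, filled red symbols for Myc-TRIM40, circles for experiment 1 and squares for experiment 2. Grey lines join the libraries of an experiment, and each symbol is 1 library. The lines are long in experiment 1 (2.28 to 196.1 FPKM for IFITM1) and short or absent in experiment 2.

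IFITM1 (Entrez gene 8519) lies on chromosome 11 from 313991 to 315272 in hg19, the build named in the processing notes. It had 103 reads in the control and 8816 in the Myc-TRIM40 library of experiment 1, or 2.28 and 196.1 FPKM. In experiment 2 it had 149 and 311 reads, or 2.99 and 6.74 FPKM. Both Myc-TRIM40 libraries were thus above both control libraries, and the Myc-TRIM40 library of experiment 1 stood far above the other 3. The fold was 83.3 in experiment 1, with a 95% counting interval from 68.6 to 102.2, and 2.07 in experiment 2, with an interval from 1.70 to 2.53. Among the 14868 genes tested, its log2 ratio of 5.91 in experiment 1 was the highest but for TRIM40, and its log2 ratio of 0.96 in experiment 2 ranked 268.

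IFITM3 (Entrez gene 10410), the member best known for blocking influenza virus entry, lies on chromosome 11 from 319673 to 320914. It had 1437 reads in the control of experiment 1 and 23517 with Myc-TRIM40, and 1677 and 2367 reads in experiment 2. These counts equal 34.4 and 561.6 FPKM in experiment 1 and 36.2 and 55.2 FPKM in experiment 2. The 2 control libraries were close to each other, and both Myc-TRIM40 libraries were above them. The fold was 15.9 (counting interval 15.1 to 16.8) in experiment 1 and 1.40 (1.31 to 1.49) in experiment 2. The log2 ratio of FPKM + 1 was 3.99 in experiment 1, which ranked 8 among the genes tested, and 0.60 in experiment 2, which ranked 1206. The coding transcript NM_021034 took between 92.9% and 95.7% of the reads of the gene in each library, and the non-coding variant NR_049759 took the rest.

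IFITM2 (Entrez gene 10581), on chromosome 11 from 308107 to 309410, had the highest control level of the IFITM genes. It had 65.4 FPKM in the control and 151.6 in the Myc-TRIM40 library of experiment 1, from 2985 and 6939 reads. In experiment 2 it had 58.1 and 57.6 FPKM, from 2943 and 2702 reads. The Myc-TRIM40 library of experiment 1 was apart from the other 3, which lay close together, so the groups overlapped. The fold was 2.26 (counting interval 2.17 to 2.36) in experiment 1 and 0.910 (0.863 to 0.959) in experiment 2.

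BST2 (Entrez gene 684) lies on chromosome 19 from 17513748 to 17516457. It had 3603 reads in the control and 16339 in the Myc-TRIM40 library of experiment 1, or 56.5 and 255.7 FPKM. In experiment 2 it had 8455 and 7316 reads, or 119.6 and 111.8 FPKM. The control libraries differed from each other, with a normalized level 2.25-fold higher in experiment 2, while the same ratio of the controls was between 0.944 and 1.39 for the 3 IFITM genes. The groups overlapped, since the control library of experiment 2 was above the Myc-TRIM40 library of the same experiment. The fold was 4.42 (counting interval 4.26 to 4.58) in experiment 1 and 0.857 (0.831 to 0.885) in experiment 2.

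The direction of IFITM2 and BST2 in experiment 2 depended on the scaling. Their log2 ratios were -0.01 and -0.10 on FPKM + 1, but 0.22 and 0.14 on TPM + 1, where TPM brings the FPKM of every library to 1 common total. Over the 11801 genes whose mean FPKM reached 1, the median log2 ratio was 0.10 on FPKM and 0.33 on TPM in experiment 2, and 0.01 and 0.04 in experiment 1. Relative to that median, IFITM2 was at -0.11 on both scales and BST2 at -0.20 on FPKM and -0.19 on TPM. IFITM1 was at 0.85 and 0.93 and IFITM3 at 0.49 and 0.51 relative to the median in experiment 2.

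A ratio of FPKM + 1 of at least 1.5 was reached by 4 of the 4 genes in experiment 1, where 2.78% of all genes tested reached it upward, and 0 of the 4 were lower by as much, against 0.659%. In experiment 2 it was reached by 2 of the 4, IFITM1 and IFITM3, against 8.54% of all genes tested, and 0 of the 4 were lower by as much, against 2.88%. Both experiments gave it for 2 of the 4, against 0.457%. These counts of 2 depended on the scale. In experiment 2 IFITM3 reached 1.5-fold on FPKM + 1, but its fold on normalized reads was 1.40. On normalized reads, 2 of the 4 genes had both Myc-TRIM40 libraries above both control libraries, against 11% of all genes tested (1638 genes). By a rule chosen after seeing the data, 2 of the 4, IFITM3 and BST2, were at least 4-fold higher in experiment 1 and within 1.5-fold in experiment 2 on normalized reads, against 0.545%. The median log2 ratio of the 4 was 3.08 in experiment 1 and 0.29 in experiment 2, beside 0.03 and 0.08 over all genes tested. The members were chosen with earlier results of these data known, so these contrasts with all genes are descriptions and carry no test. IFITM1 and IFITM3 are on the study's own list of genes changed in its RNA-seq, so their direction in experiment 2, whose FPKM values are shown with that list, is not independent evidence. The other experiment shown with it was not analysed here, since its values are not those of experiment 1.

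**Figure D2:**
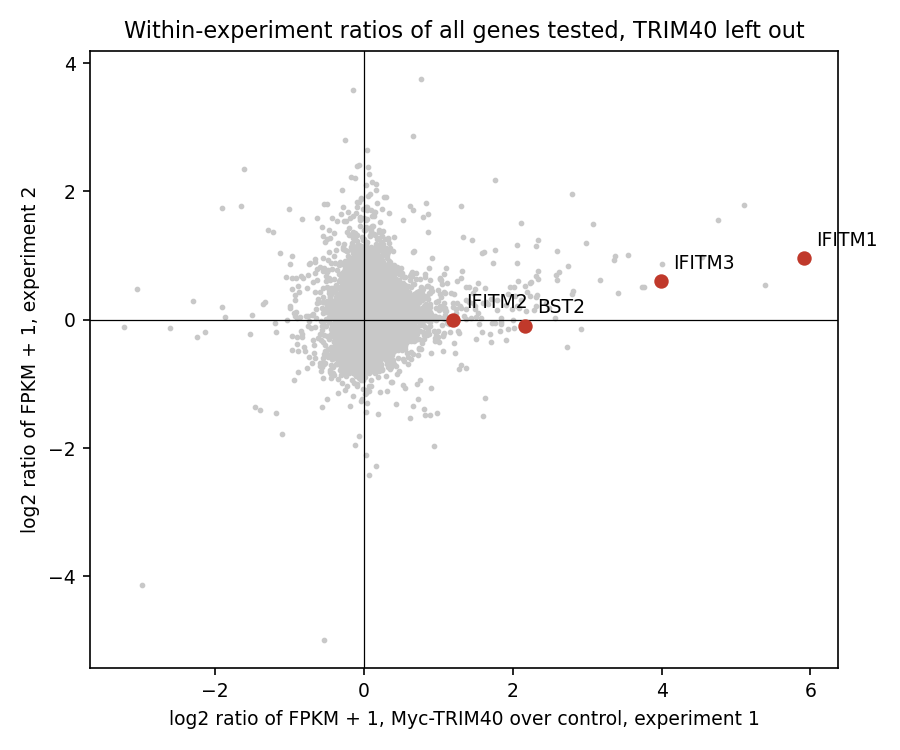
Log2 ratio of FPKM + 1 (Myc-TRIM40 over control) in experiment 1 (x axis) and experiment 2 (y axis) for the genes tested, as grey points, with TRIM40 left out and IFITM1, IFITM2, IFITM3 and BST2 in red. The 4 genes spread from 1.20 to 5.91 along the x axis and from -0.10 to 0.96 along the y axis.

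Over both experiments, with the experiment as a block, IFITM1 had a log2 fold change of 3.73 with a standard error of 1.20 (edgeR's quasi-likelihood test, adjusted p = 0.888 over 14868 genes). IFITM3 had a log2 fold change of 2.24 with a standard error of 0.75 (edgeR, adjusted p = 0.888). BST2 had 0.96 with a standard error of 0.50 (edgeR, adjusted p = 0.888), and IFITM2 had 0.52 with a standard error of 0.32 (edgeR, adjusted p = 0.888). At an adjusted p under 0.05, 0 of the 4 genes were called, where edgeR called 0.0404% of the genes tested as higher and 0.0202% as lower. An unadjusted p under 0.05 was reached upward by 2 of the 4 in edgeR, IFITM1 and IFITM3, against 3.41% of all genes tested, and downward by 0 of the 4, against 1.13%. DESeq2 also called 0 of the 4 at an adjusted p under 0.05, where it called 0.303% of the genes tested as higher and 0.0605% as lower. A difference between the experiments could not be tested, since each has 1 library per condition.

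**Figure D3:**
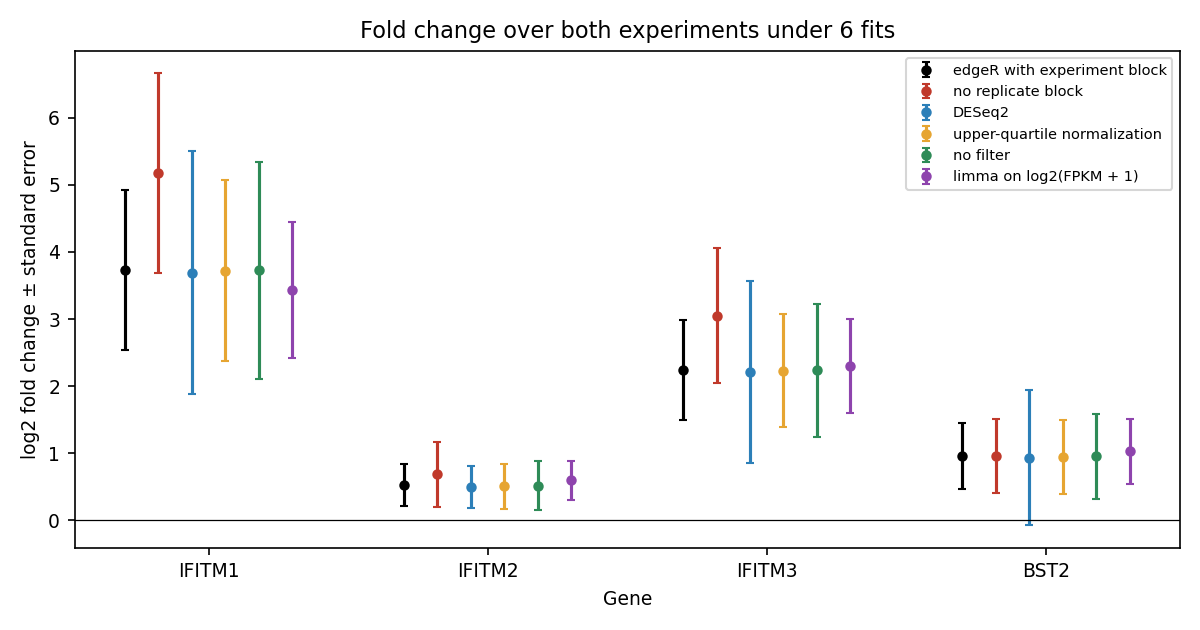
Log2 fold change (Myc-TRIM40 over control) of IFITM1, IFITM2, IFITM3 and BST2 over both experiments under 6 fits, with bars of 1 standard error. For the edgeR fits the standard error was derived from the F statistic of the test. The points lie above 0 in each fit, and the bars are wide, from 1.01 to 1.81 for IFITM1.

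The experiments also differed in the level of TRIM40 itself. Between the Myc-TRIM40 libraries, normalized reads of TRIM40 were 2.53-fold higher in experiment 1. Between the same libraries IFITM1 differed 29.1-fold, IFITM3 10.2-fold, IFITM2 2.63-fold and BST2 2.29-fold. The part of the TRIM40 level in these differences was not tested.

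The reads of the 3 IFITM genes summed to 4525 in the control of experiment 1 and 39272 with Myc-TRIM40, and to 4769 and 5380 in experiment 2. The sum does not depend on how reads are divided within the cluster. Its fold was 8.45 (counting interval 8.19 to 8.72) in experiment 1 and 1.12 (1.08 to 1.16) in experiment 2. Over both experiments its log2 fold change was 1.62 with a standard error of 0.61 (edgeR, adjusted p = 0.888 over the genes tested).

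The composition of the cluster by FPKM, a level per length, differed between the libraries. IFITM2 made up 64.1% and 59.7% of the summed FPKM in the control libraries of experiments 1 and 2, and IFITM3 33.7% and 37.2%. IFITM1 made up 2.24% and 3.08% there. In the Myc-TRIM40 library of experiment 1, IFITM3 made up 61.8%, IFITM1 21.6% and IFITM2 16.7%, so that the order was IFITM3, IFITM1, IFITM2. In the Myc-TRIM40 library of experiment 2 the shares were 48.2% for IFITM2, 46.2% for IFITM3 and 5.63% for IFITM1.

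**Figure D4:**
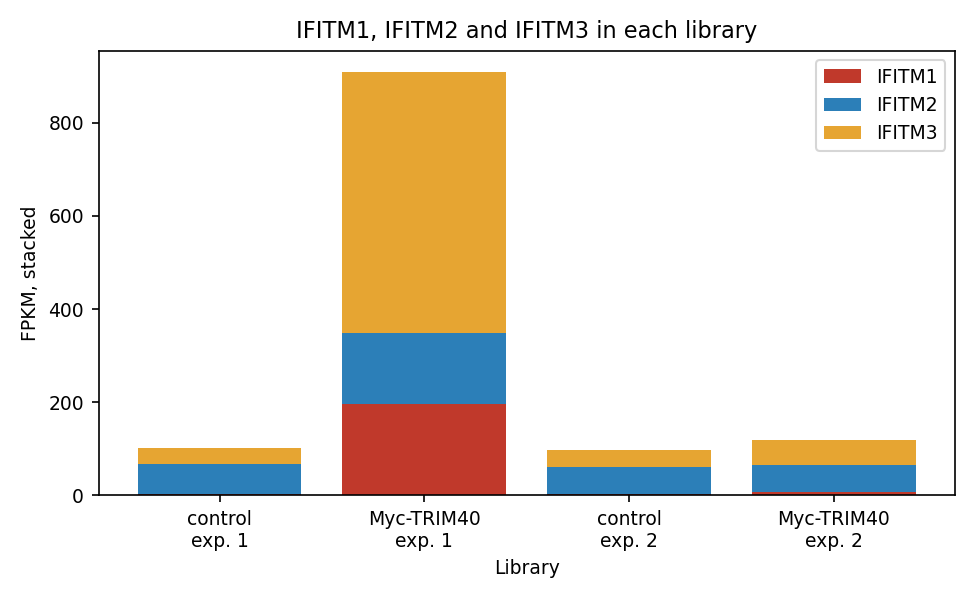
Stacked FPKM of IFITM1, IFITM2 and IFITM3 in each library, with 1 bar per library and the y axis starting at 0. The bar of the Myc-TRIM40 library of experiment 1 reaches 909.3 FPKM and is mostly IFITM3, while the other 3 bars lie between 97.3 and 119.6 FPKM.

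The order of the 4 genes by FPKM was BST2, IFITM2, IFITM3, IFITM1 in both libraries of experiment 2. In the control of experiment 1 IFITM2 was above BST2, at 65.4 against 56.5 FPKM. In the control libraries IFITM1 was at percentiles 30.1 and 37.4 of FPKM among the genes tested, while the other 3 were between percentiles 84.0 and 95.1. In the Myc-TRIM40 library of experiment 1 all 4 were between percentiles 97.0 and 99.3. With 2 libraries per condition, neighbours in this order cannot be told apart beyond their spread where their ranges overlap, as those of IFITM2 and BST2 in the controls do.

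The genes beside the IFITM cluster gave folds closer to 1 than the 3 IFITM genes did in experiment 1. In experiment 2 some of these neighbours lay further from 1 than IFITM2, whose fold was 0.910. Of 11 other genes within 100 kb of the cluster, 7 had enough reads for the test and 3 had 0 reads in every library, among them IFITM5, a relative expressed in bone. The folds of the 7 ranged from 0.927 to 1.23 in experiment 1 and from 0.716 to 1.09 in experiment 2, and none had an unadjusted p under 0.05. They included PSMD13, a proteasome subunit gene, and PKP3, which encodes a desmosome protein. PSMD13 had folds of 0.936 and 0.716, and PKP3 had folds of 1.01 and 0.901, in experiments 1 and 2. In experiment 2 the log2 ratio of normalized reads was -0.482 for PSMD13 and 0.484 for IFITM3, of similar size in opposite directions.

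BST2 has a close neighbour, the long non-coding RNA gene BISPR, whose name records that it is interferon-stimulated and regulates BST2. In RefSeq the start sites of the 2 genes lie 56 bases apart on opposite strands. The ISRE cores of BST2, at chr19:17405745-17405760 in GRCh38.p14, begin 59 bases past the start of BISPR. BISPR had 493 reads in the control of experiment 1 and 1650 with Myc-TRIM40, and 455 and 703 reads in experiment 2. Its folds were 3.26 (counting interval 2.95 to 3.61) and 1.53 (1.36 to 1.73), so that unlike BST2 it was higher in the Myc-TRIM40 library of each experiment. Over both experiments its log2 fold change was 1.16 with a standard error of 0.29 (edgeR, adjusted p = 0.587 over 14868 genes).

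The deposited span of BISPR lies within that of MVB12A, an endosomal sorting gene, so reads could be divided between the 2 genes. MVB12A had 1262 and 874 reads in experiment 1 and 1344 and 1013 in experiment 2, or folds of 0.674 and 0.747. Summed with MVB12A, an alternative chosen after seeing the data, the folds were 1.40 in experiment 1 and 0.945 in experiment 2, which turned the direction in experiment 2. No gene span in the deposited table overlaps BST2 or the IFITM genes. The other 8 genes tested within 100 kb of BST2 had folds from 0.674 to 1.14 in experiment 1 and from 0.663 to 1.91 in experiment 2. Of the 8, only MVB12A had an unadjusted p under 0.05, downward (edgeR, adjusted p = 0.888), where 1.13% of all genes tested did so downward. BISPR also had an unadjusted p under 0.05 in edgeR, upward.

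**Figure D5:**
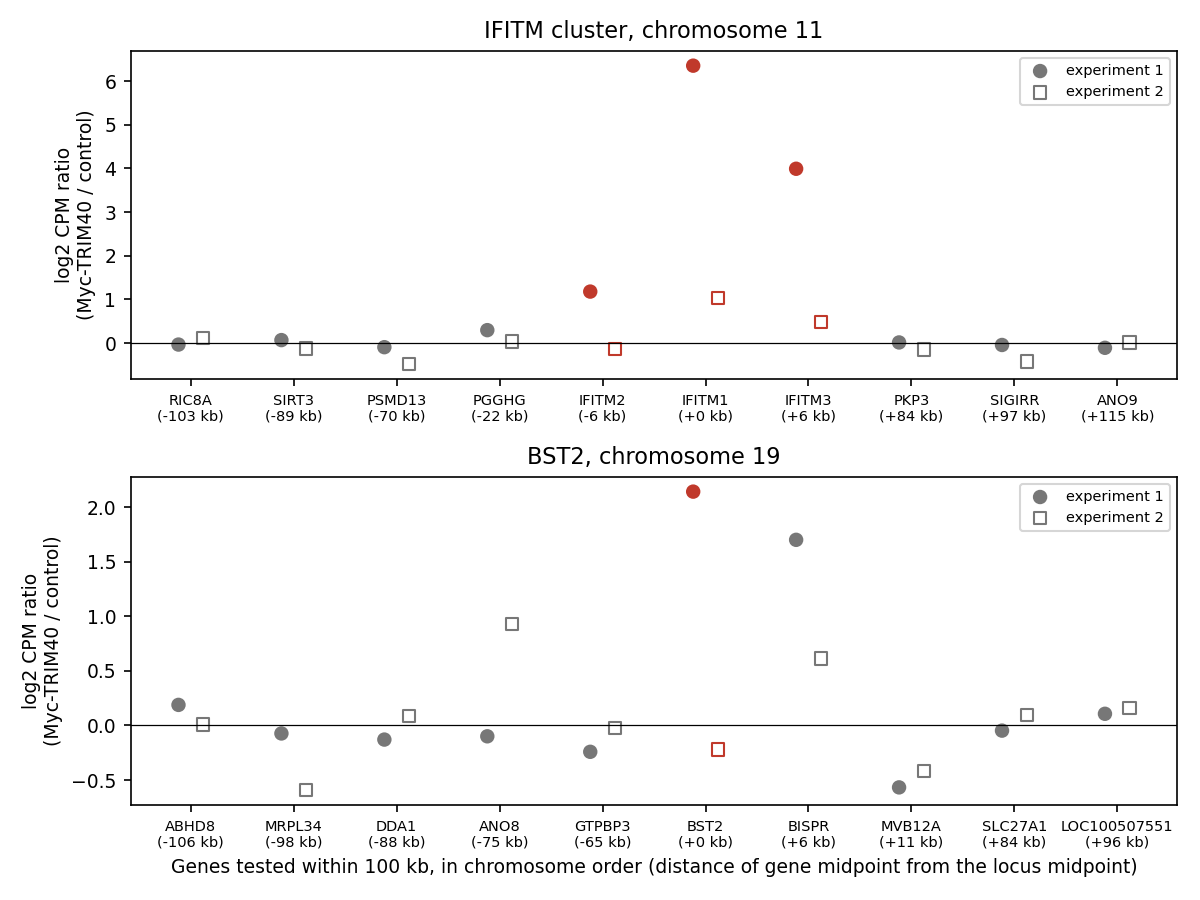
Log2 ratio of normalized reads (log2 CPM, Myc-TRIM40 over control) of the genes tested within 100 kb of the IFITM cluster (top) and of BST2 (bottom), in chromosome order, with filled circles for experiment 1, open squares for experiment 2 and the members in red. In experiment 1 IFITM1 stands at 6.35, IFITM3 at 3.99 and IFITM2 at 1.18 among neighbours between -0.11 and 0.29, and BST2 at 2.14 beside BISPR at 1.70.

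The wider family with the same membrane domain was silent or at low levels. Of 9 other genes of the CD225 domain family, 4 had 0 reads in every library and 4 were tested, with 0 past an adjusted or an unadjusted p of 0.05 in edgeR and 0 in DESeq2. IFITM10 was the highest of them in the Myc-TRIM40 library of experiment 1, at 3.45 FPKM against 1.99 in its control. In experiment 2 it had 1.81 FPKM against 2.26 in the control. The median log2 ratio of the tested genes of this family was 0.00 in experiment 1 and -0.15 in experiment 2.

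Of 11 genes for partners and modifying enzymes of IFITM proteins, all 11 were tested, and 0 passed an adjusted or an unadjusted p of 0.05 in edgeR. Their median log2 ratios were -0.07 in experiment 1 and 0.12 in experiment 2. NEDD4, a ubiquitin ligase that acts on IFITM3, had the largest mean log2 ratio, with 0.32 in experiment 1 and 0.44 in experiment 2. SETD7, a methyltransferase that acts on IFITM3, had -0.15 and 0.69. CD81, a tetraspanin found in complexes with IFITM1, had -0.07 and -0.38.

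Of 9 genes for partners of tetherin, 8 were tested, and 0 passed an adjusted or an unadjusted p of 0.05 in edgeR. Their median log2 ratios were 0.07 in experiment 1 and 0.26 in experiment 2. LILRA4, the receptor for tetherin on plasmacytoid dendritic cells, had 0 reads in every library. ARHGAP44, which encodes the adaptor that joins tetherin to the actin cytoskeleton, had between 4 and 29 reads per library. The other links of that chain were abundant, with SLC9A3R1 between 158.1 and 177.5 FPKM and EZR (ezrin) between 121.4 and 151.9 FPKM, and their log2 ratios lay between 0.07 and 0.24 in both experiments.

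Among 10 other restriction factors that act at membranes, 8 were tested, 0 passed an adjusted p of 0.05 in edgeR and 1, RSAD2, did in DESeq2. DESeq2 called 0.303% of all genes tested as higher and 0.0605% as lower. An unadjusted p under 0.05 was reached in edgeR by 2, RSAD2 and PLSCR1, both upward, against 3.41% of all genes tested. RSAD2 (viperin) had 21 and 780 reads in experiment 1 and 7 and 44 in experiment 2, with a log2 fold change of 4.29 and a standard error of 0.58 (edgeR, adjusted p = 0.0795). PLSCR1, a phospholipid scramblase, had 18.5 FPKM in the control of experiment 1 and 88.4 with Myc-TRIM40, and 27.2 and 37.2 in experiment 2. LY6E, a surface protein known to act on viral entry, had 199.2 and 483.6 FPKM in experiment 1 and 243.1 and 211.1 FPKM in experiment 2, so its experiments went opposite ways on FPKM, as those of BST2 did. The list had median log2 ratios of 0.39 and 0.25.

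Of 8 genes for the interferon receptor, its kinases and the factors that bind the ISRE or induce these genes, all 8 were tested, 0 passed an adjusted p of 0.05 in edgeR and 2 did in DESeq2. DESeq2 called 0.303% of all genes tested as higher and 0.0605% as lower. An unadjusted p under 0.05 was reached upward in edgeR by 3 of the 8, STAT2 and IRF9 among them, against 3.41% of all genes tested. IRF9 had 9.17 and 41.4 FPKM in the control and Myc-TRIM40 libraries of experiment 1, and 8.18 and 15.9 in experiment 2. STAT2 had 5.88 and 12.7 FPKM, and then 3.58 and 5.33. Both were thus higher in the Myc-TRIM40 library of experiment 2, where BST2 and IFITM2 were not on FPKM.

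The genes whose 4 centred log2 CPM values lay nearest to those of each member were sought among 11749 others whose mean FPKM reached 1. For IFITM1 they were UBE2L6, XAF1 and IFI44L, at Euclidean distances of 0.530, 0.641 and 0.870. UBE2L6, the conjugating enzyme of ISG15, had 0.525 FPKM in the control of experiment 1 and 34.6 with Myc-TRIM40, and 0.507 and 1.96 in experiment 2. For IFITM3 they were TMEM140, IFIT1 and HERC6, at distances of 0.548, 0.570 and 0.570. XAF1, IFI44L and TMEM140 reached 1 FPKM only in the Myc-TRIM40 library of experiment 1. UBE2L6 was under 1 FPKM in both controls and at 1.96 with Myc-TRIM40 in experiment 2. UBE2L6, XAF1, IFI44L and TMEM140 all passed the filter on mean FPKM through the Myc-TRIM40 library of experiment 1, so the filter itself favours the pattern sought.

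For BST2 the nearest were PSMB8, HIST2H2AA3 and CXCL8, at distances of 0.173, 0.340 and 0.343. PSMB8, an immunoproteasome subunit, had 8.50 and 33.0 FPKM in experiment 1, and 15.6 and 16.0 in experiment 2, with a higher control in experiment 2 as in BST2. For IFITM2 they were NUPR1, RELB and GDF15, at distances of 0.0591, 0.0951 and 0.173. NUPR1 also reached 1 FPKM only in the Myc-TRIM40 library of experiment 1. RELB, an NF-kappaB subunit, had 4.64 and 11.2 FPKM, and then 4.52 and 4.33. These distances describe 4 libraries and carry no test.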

How the data were processed

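RNA was measured in HT-29 cells carrying a control vector or Myc-TRIM40, with 1 library of each in each of 2 experiments. Per the labels, the submitters' processing notes name HISAT2 2.1.0, StringTie 1.3.4d and the build hg19, the kit was TruSeq Stranded mRNA, and whether counting used strand is not given in the sources used here. The authors deposited, per RefSeq transcript, an estimated count of reads (whole numbers, not normalized), FPKM, which adjusts for length and depth, and for experiment 2 also TPM. For experiment 1, TPM was computed here from FPKM.

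Transcripts were summed to 27685 genes. The 14868 genes kept by filterByExpr were tested with edgeR 4.0.16 (glmQLFit and glmQLFTest, R 4.3.3), with TMM normalization, Benjamini-Hochberg adjustment over all of them and the experiment as a block, since the study compared its cells within each experiment. Each table holds 1 experiment and the labels number the libraries to match, which gives the pairing. Same-numbered libraries deviated together from their condition means (correlation 0.449 across 14868 genes). The fit left 1 residual degree of freedom, and its common dispersion came to 0.0484. The test gives no standard error. Those shown for edgeR were computed here as the absolute log2 fold change divided by the square root of the F statistic of the test. Within an experiment there is 1 library per condition, so ratios there carry no test. Intervals are exact 95% Clopper-Pearson intervals on the 2 read counts and cover counting error only. Totals were between 60954602 and 67424698 reads per library, and the number of experiments, 2, limits precision.

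The alternatives were no block, DESeq2 1.42.0, upper-quartile normalization, no filter, limma 3.58.1 on log2(FPKM + 1), each experiment left out, the IFITM genes summed, and, for ratios within an experiment, a pseudocount of 0.1, TPM, normalized reads and centring on the median. Summing BISPR and MVB12A was chosen after seeing the data. The fit was tested on simulated data with the means of these libraries and 200 changed genes. It found 18 of 74 genes changed 2-fold, 63 of 63 changed 4-fold and 63 of 63 changed 8-fold, with 9 false calls among 14863 genes. Every simulated gene had the same dispersion and no effect of experiment, and a changed gene had the same fold in both experiments. The folds of the members differed between experiments, so the simulation does not show how often such changes are found.

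Named genes were the members, TRIM40, genes within 100 kb, the lists of partners and markers, and the 3 genes nearest to each member by Euclidean distance of 4 centred log2 CPM values. The members and lists were chosen with earlier results of these data known. Promoters came from RefSeq (GRCh38.p14) and transcripts from GENCODE 29. Python 3.11.15 and matplotlib 3.10.9 were used for the rest. Results for some genes of the lists are not reported here.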

Additional observations from a re-analysis of the deposited data

Results flagged for a closer look

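IFITM2 and BST2 moved in opposite directions in the 2 experiments on normalized reads (log2 CPM with a prior count of 2, Myc-TRIM40 minus control). IFITM2 was at 1.18 in experiment 1 and -0.14 in experiment 2, and BST2 was at 2.14 and -0.22. Such a pattern, higher in experiment 1 and lower in experiment 2, was found for 21.6% of all genes tested. The difference between the experiments was not tested, since each has 1 library per condition, and on TPM both genes were higher in the Myc-TRIM40 library of experiment 2.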

How the results depend on the processing

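For the 4 genes and the IFITM sum, 26 of 26 log2 fold changes under the other fits kept their direction and an adjusted p above 0.05. The fits with no replicate block and with no filter called no gene at all, TRIM40 included. An adjusted p above 0.05 in those fits therefore does not set the members apart from any other gene. The adjusted p ranged from 0.804 to 1.00 across edgeR, DESeq2 and limma. With no replicate block the log2 fold changes were 5.17 for IFITM1, 3.05 for IFITM3, 0.68 for IFITM2, 0.97 for BST2 and 2.25 for the IFITM sum, and the block changed no call for them. With an experiment left out, 1 library per condition remains and there is no test. The values then ranged from 1.04 to 6.35 for IFITM1, from 0.48 to 3.99 for IFITM3, from -0.14 to 1.18 for IFITM2, from -0.22 to 2.14 for BST2 and from 0.16 to 3.08 for the IFITM sum, so IFITM2 and BST2 reversed without replicate 1. Over all genes, 6 were higher and 3 lower with the block. With no replicate block and with no filter the counts were 0 and 0 (128 and 25, and 343 and 104, at an unadjusted p under 0.05), with DESeq2 45 and 9, and with limma 3 and 0. The counts have no value with an experiment left out. Of 32 alternatives for ratios within an experiment, 30 kept direction and stayed within the spread between experiments, and TPM reversed IFITM2 to 0.22 and BST2 to 0.14 in experiment 2. Summing BISPR with MVB12A, chosen after seeing the data, reversed the BISPR log2 ratio in experiment 2 to -0.0812. The causes were not tested.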

Other observations

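The pseudogene IFITM4P, on chromosome 6, had between 0 and 7 reads per library. The 2 transcripts of BISPR divided its reads differently between libraries. NR_130765 had 276 and 899 reads in the control and Myc-TRIM40 libraries of experiment 1 and 41 and 382 in experiment 2. NR_130766 had 217 and 751 reads in experiment 1 and 414 and 321 in experiment 2, so the transcripts went opposite ways in experiment 2.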
